A study of Mus musculus with 27 samples.

Results

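The comparison described here is that of ursolic acid with the high-fat diet (HFD) in the gastrocnemius, the large calf muscle of the mouse, and it rests on 6 of the 27 Illumina mouse arrays of the series. The members are the 3 arrays labelled as gastrocnemius with the HFD supplemented with ursolic acid (UR) and the 3 labelled as gastrocnemius with the HFD alone. A further 3 gastrocnemius arrays, of the normal diet (ND), entered the normalization and the estimate of error. All mice were male C57BL/6J (spelled C56BL/6J in the sample characteristics), arrived at 4 weeks of age and ate the semi-purified AIN-76 diet for a 1-week acclimation. The HFD held 20% fat and 1% cholesterol, the UR diet was the same HFD with 0.05% UR by weight, and each diet lasted 16 weeks. Tissues were taken after a fast, at a time of day that the sources used here do not give. The RNA on each array was a pool of several mice, and the sources do not say which mice entered which pool, so n counts pools, and the SD and standard errors measure the spread between pools rather than between mice. The number of arrays limits the precision.

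UR is a pentacyclic triterpenoid of fruit peel and herbs. The gastrocnemius is a mixed muscle of fast and slow fibres that take up glucose and fatty acids and burn them in mitochondria. The fibres are held in a collagen-rich matrix made largely by fibroblasts, and capillaries, nerve endings, tendon and resident macrophages share the tissue. Muscle also has a daily clock, in which the CLOCK and BMAL1 proteins switch on genes through a short DNA element, the E-box, and the products of some of these genes feed back to shut the pair down.

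Probe signals were quantile-normalized over the 9 muscle arrays and put on the log2 scale, and every level below is a log2 signal of 1 probe. In all, 9313 genes had a probe detected on all 3 arrays of at least 1 muscle group and were tested with limma (two-sided, Benjamini-Hochberg adjustment over all 9313). "Rose", "fell" and "called" stand for an adjusted p under 0.05. As a check of the tissue label, of 12 markers of the skeletal muscle fibre, 11 were detected on all 9 arrays, while 6 of 8 hepatocyte markers on the array (Alb, Apoa1, Apoa2, Ttr, Fgb and Tat) were detected on none. Of the other 2, Cyp2e1 was detected on all 9 arrays, and it rose with UR (log2 change of 0.35, adjusted p = 0.0351). The share of probes detected was 37.6% to 38.1% on the UR arrays and 35.5% to 35.8% on the HFD arrays, so the groups did not overlap, and the part of this in the results was not tested.

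UR changed many genes by small amounts. Of the 9313 genes, 2093 (22.5%) were called, 1073 (11.5%) higher and 1020 (11%) lower with UR, and the median size of a called change was 0.24 on the log2 scale. A change over 1 was reached by 4 called genes, all of them higher (Dbp, Ciart, Per2 and Bhlhe40), and a change over 0.5 by 91 called genes that rose and 25 that fell. Of the genes called higher, 90 passed the detection filter through the UR arrays only, and of those called lower, 58 were not detected on all UR arrays. The median pool-to-pool SD of a gene was 0.0685 with the HFD and 0.0595 with UR. The 3 UR arrays lay entirely above the 3 HFD arrays in 18.4% of genes and entirely below them in 23.8%, 42.1% in all. The balance of the directions depended on the scaling: with each array scaled to a common median, 933 genes rose and 204 fell. Over all genes the median log2 change was -0.02. Between the HFD and the ND, which share the HFD arrays with the comparison above, 1432 genes were called (15.4%), 709 (7.61%) higher and 723 (7.76%) lower with the HFD. There too the balance depended on the scaling, with 72 higher and 1888 lower and a median of all genes of -0.11 under median scaling. The shared HFD arrays favour opposite signs in these comparisons. A fall with the HFD and a rise with UR in the same gene is therefore not read as a reversal below.

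**Figure D1:**
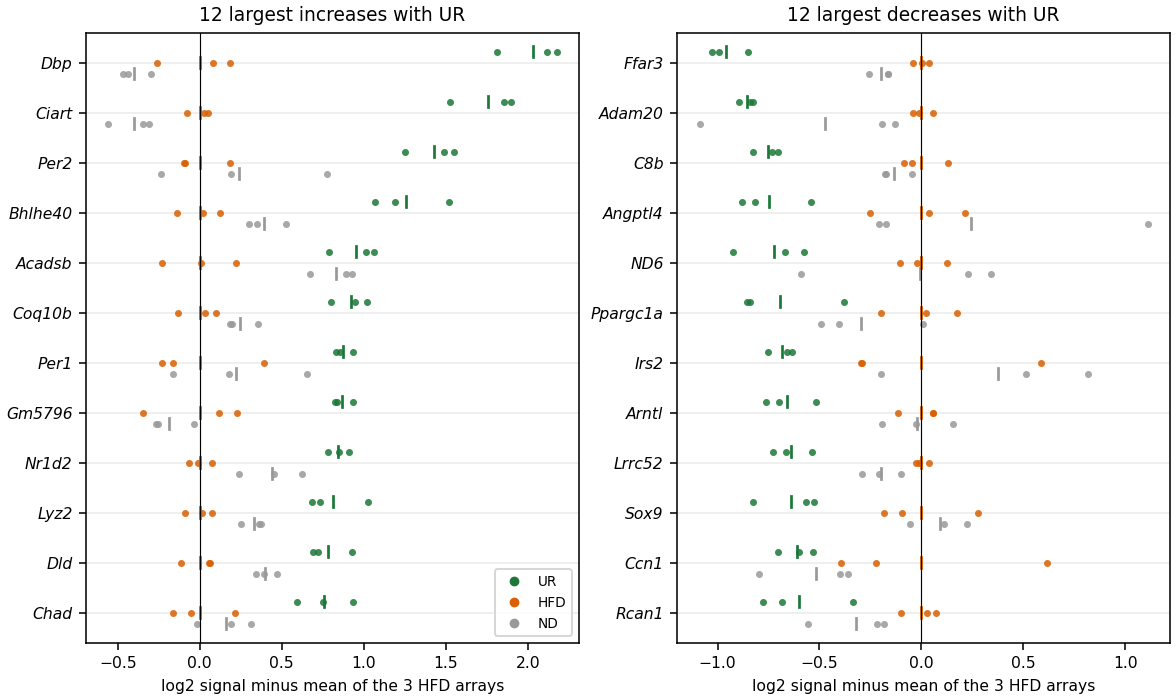
Log2 signal of the 12 largest increases (left) and 12 largest decreases (right) with UR in muscle, each array as a point (n = 3 pools per diet) relative to the mean of the HFD arrays, with a tick at each group mean. The UR arrays do not overlap the HFD arrays in any of these genes, which the choice of the genes required; among the decreases, HFD replicate 3 stands high for Irs2 and Ccn1, and the ND arrays spread widely for Adam20 and Angptl4.

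Genes of the daily clock made up the largest increases. Dbp, a transcription factor that carries clock time to metabolic genes, measured 10.99, 11.09 and 10.65 on the HFD arrays and 12.72, 13.09 and 13.03 on the UR arrays. The groups lay about 2 log2 units apart with no overlap (log2 change of 2.03, standard error 0.11, adjusted p = 7.23e-08). Ciart, whose product holds back CLOCK with BMAL1, measured 8.04, 8.16 and 8.14 on the HFD arrays and 9.64, 10.01 and 9.97 on the UR arrays, and all 3 UR arrays stood over 1 unit above the highest HFD array (log2 change of 1.76, standard error 0.09, adjusted p = 7.23e-08). Bhlhe40, another repressor at E-boxes, measured 10.76, 10.92 and 11.02 on the HFD arrays and 11.97, 12.09 and 12.42 on the UR arrays (log2 change of 1.26, standard error 0.10, adjusted p = 7.85e-06). All 3 genes were higher on every UR array than on any HFD array. Of 10 measured evening-phase repressors and output genes, 8 rose and the other 2 were not called (Per3, 1 of the 8, passed the detection filter through the UR arrays only), against the 11.5% of all genes that rose, with a median change of 0.68 against -0.02 for all genes, and 7 to 8 rose when 1 array was left out. Nr1d2 and Usp2, a nuclear receptor that represses Arntl and a deubiquitinase under clock control, rose by 0.84 and 0.52. Tef, a relative of Dbp, rose by 0.31 and was not called without UR replicate 2 (adjusted p = 0.145), UR replicate 3 (0.0936), HFD replicate 1 (0.114) or HFD replicate 2 (0.0851). Nr1d1, the close relative of Nr1d2, measured 8.81, 9.11 and 8.70 on the HFD arrays and 9.13, 9.08 and 9.18 on the UR arrays, and its groups overlapped (log2 change of 0.26, standard error 0.12, adjusted p = 0.135). On the activating side, Arntl, which encodes BMAL1, measured 9.88, 9.88 and 9.71 on the HFD arrays and 9.30, 9.12 and 9.05 on the UR arrays, so every UR array lay below every HFD array.

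The promoter windows of 3 of these genes are shown because they hold the elements through which the clock proteins are known to act. The E-box CACGTG is bound by CLOCK with BMAL1, and the D-box, searched as TTATGTAA and TTACGTAA, by DBP and TEF. Windows of 300 bases, from 250 before to 50 after a transcription start, came from RefSeq (GRCm38.p6), and both strands were searched. Of 14 measured clock genes 12 had a window in the table, with 17 windows between them. An E-box was found in 3 of these genes (Ciart, Per1 and Tef) and a D-box in 1 (Per3). Tef held 1 E-box in each of its windows, which are not printed. Among all 32851 windows of the table, 7.15% held the E-box, 0.938% the first D-box and 0.119% the second. These are shares of windows, not of genes. Ciart (chr3:95882179-95882478, minus strand) held 3 E-boxes, Per1 (chr11:69098699-69098998, plus strand) held 1 in the first of its 2 windows, and Per3 (chr4:151044616-151044915, minus strand) held 2 D-boxes. Each is printed 5′ to 3′ with the elements in capitals.
Ciart: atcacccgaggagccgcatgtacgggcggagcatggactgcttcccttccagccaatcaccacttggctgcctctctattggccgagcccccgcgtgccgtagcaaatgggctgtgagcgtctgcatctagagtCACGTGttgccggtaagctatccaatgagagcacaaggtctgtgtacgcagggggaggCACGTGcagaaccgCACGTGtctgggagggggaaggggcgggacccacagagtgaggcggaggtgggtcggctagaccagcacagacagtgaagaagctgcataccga
Per1: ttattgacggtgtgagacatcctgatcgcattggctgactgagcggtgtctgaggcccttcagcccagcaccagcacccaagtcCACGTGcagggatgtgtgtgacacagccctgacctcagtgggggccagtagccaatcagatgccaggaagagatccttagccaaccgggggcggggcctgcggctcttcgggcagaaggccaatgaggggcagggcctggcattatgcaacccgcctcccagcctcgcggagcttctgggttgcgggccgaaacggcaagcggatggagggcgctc
Per3: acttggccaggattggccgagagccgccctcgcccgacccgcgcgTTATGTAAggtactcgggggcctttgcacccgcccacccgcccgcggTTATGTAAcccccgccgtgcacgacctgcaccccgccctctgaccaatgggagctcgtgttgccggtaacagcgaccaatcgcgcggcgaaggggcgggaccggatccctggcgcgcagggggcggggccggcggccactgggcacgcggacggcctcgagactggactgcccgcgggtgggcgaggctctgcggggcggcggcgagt
The 3 genes shown differed widely in their change, from 1.76 for Ciart to 0.87 for Per1, while Per3 passed detection on the 3 UR arrays and on no HFD array, at least 1.17-fold higher against the lowest detected signal. Tef, which holds the E-box but is not shown, rose by 0.31. Windows without a match, Dbp and Nr1d2 among them, lack these letters only from 250 bases before to 50 after the start.

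Outside the clock, the largest increases included genes of mitochondrial metabolism, cartilage and tendon, and macrophages. Acadsb, a dehydrogenase of short branched acyl-CoA in isoleucine breakdown, measured 10.62, 10.38 and 10.83 on the HFD arrays and 11.40, 11.67 and 11.62 on the UR arrays (log2 change of 0.95, standard error 0.10, adjusted p = 8.31e-05). Coq10b, which binds coenzyme Q in the inner mitochondrial membrane, measured 9.59, 9.42 and 9.66 on the HFD arrays and 10.36, 10.57 and 10.50 on the UR arrays (log2 change of 0.92, standard error 0.08, adjusted p = 9.23e-06). All UR arrays lay above all HFD arrays. With the HFD against the ND both genes had fallen, by 0.83 for Acadsb and 0.24 for Coq10b on the log2 scale. Lyz2, the lysozyme of macrophages and neutrophils, measured 8.78, 8.61 and 8.71 on the HFD arrays and 9.73, 9.39 and 9.44 on the UR arrays, with UR replicate 1 the highest array (log2 change of 0.81, standard error 0.08, adjusted p = 4.79e-05). Chad, which encodes the cartilage and tendon matrix protein chondroadherin, measured 8.45, 8.83 and 8.57 on the HFD arrays and 9.21, 9.37 and 9.55 on the UR arrays (log2 change of 0.76, standard error 0.11, adjusted p = 0.000455). Gm5796, a predicted gene with no role known here, rose by 0.87 (standard error 0.11, adjusted p = 0.000289).

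No decrease reached 1 log2 unit, and for every gene of the text that fell all UR arrays lay below all HFD arrays. Ffar3, a receptor for short-chain fatty acids, measured 10.38, 10.34 and 10.42 on the HFD arrays and 9.39, 9.35 and 9.53 on the UR arrays, 1 tight group below the other (log2 change of -0.96, standard error 0.06, adjusted p = 4.83e-07). C8b, a chain of the complement membrane attack complex, measured 9.53, 9.31 and 9.35 on the HFD arrays and 8.57, 8.67 and 8.70 on the UR arrays (log2 change of -0.75, standard error 0.07, adjusted p = 2.19e-05). Adam20, an ADAM-family gene, measured 8.87, 8.80 and 8.77 on the HFD arrays and 7.99, 7.97 and 7.92 on the UR arrays, and its larger standard error came with an ND spread (SD 0.54) far wider than that of the HFD (SD 0.051) or UR (SD 0.036) arrays (log2 change of -0.85, standard error 0.17, adjusted p = 0.00409). Lrrc52, an auxiliary subunit of potassium channels, fell by 0.64, and ND6, the mitochondrially encoded complex I subunit, fell by 0.72.

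The remaining decreases included regulators of mitochondria, calcium and insulin signalling and of connective tissue. Ppargc1a, the PGC-1 coactivator of mitochondrial genes, measured 11.42, 11.20 and 11.57 on the HFD arrays and 11.02, 10.54 and 10.55 on the UR arrays, with UR replicate 1 nearest to the HFD arrays. Rcan1, an inhibitor of calcineurin that calcium signals induce, measured 13.89, 13.76 and 13.93 on the HFD arrays and 13.52, 13.18 and 13.08 on the UR arrays (log2 change of -0.60, standard error 0.11, adjusted p = 0.00191). Sox9, a transcription factor of cartilage and connective tissue, measured 11.16, 11.07 and 11.53 on the HFD arrays and 10.72, 10.69 and 10.43 on the UR arrays (log2 change of -0.64, standard error 0.11, adjusted p = 0.00157). Irs2, an adaptor of the insulin receptor, measured 10.09, 10.08 and 10.97 on the HFD arrays and 9.75, 9.63 and 9.72 on the UR arrays, and a single array, HFD replicate 3, stood far above the others of its group. Without that array its change was -0.39 (adjusted p = 0.173, against 0.0458 with all arrays). Ccn1, a matricellular protein, followed the same pattern at 9.60, 9.42 and 10.44 on the HFD arrays and 9.22, 9.12 and 9.29 on the UR arrays, and its change without HFD replicate 3 was -0.30 (adjusted p = 0.0789, against 0.034). Neither gene was called when any 1 of the UR arrays was left out, with adjusted p from 0.0786 to 0.122 for Irs2 and from 0.0654 to 0.105 for Ccn1. Angptl4, an inhibitor of lipoprotein lipase that fasting induces, measured 10.39, 10.57 and 10.10 on the HFD arrays and 9.81, 9.47 and 9.54 on the UR arrays (log2 change of -0.75, standard error 0.25, adjusted p = 0.0476), and lost its call when any single HFD or UR array was left out.

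Collagen genes rose together. Of 18 measured, 14 rose with UR and the other 4 were not called, against the 11.5% of all genes that rose, and the median change was 0.28. Of the 14, 1 passed the detection filter through the UR arrays only. Without 1 array the count of those that rose was 10 to 14, and with median scaling it was 13. Col1a1, a chain of the main fibrillar collagen of tendon and interstitium, measured 8.78, 9.06 and 8.89 on the HFD arrays and 10.08, 9.44 and 9.35 on the UR arrays. UR replicate 1 was the highest of the 3 UR arrays and the other 2 lay nearer to the HFD arrays, though none overlapped them (log2 change of 0.71, standard error 0.15, adjusted p = 0.00502). UR replicate 1 was also the highest for Col3a1, a fibrillar chain of soft connective tissue, which measured 8.59, 8.15 and 8.49 on the HFD arrays and 9.57, 8.81 and 8.89 on the UR arrays (log2 change of 0.68, standard error 0.16, adjusted p = 0.00806), and for Col5a1, whose product starts fibril assembly, at 9.28, 9.19 and 9.26 on the HFD arrays and 10.13, 9.76 and 9.61 on the UR arrays (log2 change of 0.59, standard error 0.10, adjusted p = 0.00146). Without UR replicate 1 the changes were 0.48, 0.44 and 0.44, each still called (adjusted p = 0.00697, 0.0134 and 0.00141).

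The increase was not restricted to fibrillar chains. Col8a1, a short-chain collagen of vessel walls, measured 8.81, 8.72 and 8.74 on the HFD arrays and 9.64, 9.24 and 9.15 on the UR arrays, and Col6a1, a chain of the microfibrils around each fibre, 10.46, 10.36 and 10.24 on the HFD arrays and 10.85, 10.77 and 10.66 on the UR arrays. For both, every UR array lay above every HFD array (log2 change of 0.58, standard error 0.10, adjusted p = 0.00147, and 0.41, standard error 0.07, adjusted p = 0.00186). UR replicate 1 was again the highest array for both. Without it the changes were 0.43 and 0.36, each still called (adjusted p = 0.00141 and 0.00863). Col22a1, a collagen of the muscle-tendon junction, measured 9.42, 9.73 and 9.52 on the HFD arrays and 9.97, 10.04 and 9.97 on the UR arrays, with UR arrays that differed among themselves by less than 0.1 (log2 change of 0.43, standard error 0.07, adjusted p = 0.00134). Col16a1 and Col18a1, which are found at fibrils and basement membranes, rose by 0.49 and 0.26, with UR replicate 1 the highest for Col16a1. The comparison of the HFD with the ND called 3 of the 18 collagen genes higher and 3 lower, with a median of -0.02. Of all genes 7.61% were higher and 7.76% lower with the HFD. Of 14 genes that process and cross-link collagen, 5 rose, against 11.5% of all genes, and the other 9 were not called. Pcolce2, an enhancer of procollagen cleavage, rose by 0.43. When 1 array was left out, 2 to 4 of the 14 rose (2 without UR replicate 2 or HFD replicate 1, 3 without UR replicate 3 or HFD replicate 2).

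**Figure D2:**
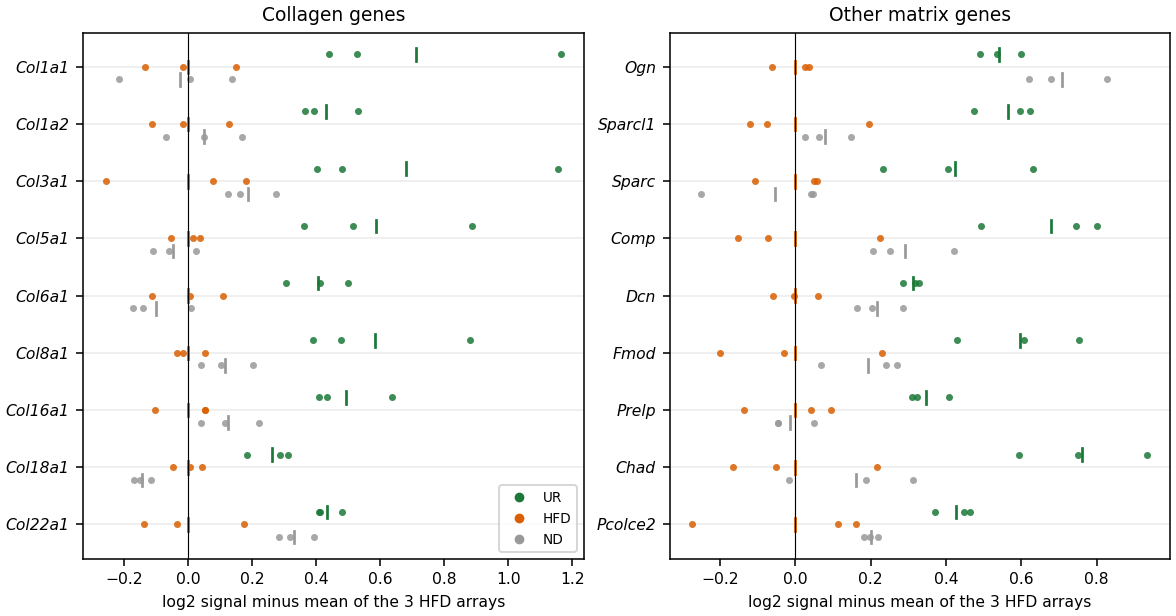
Log2 signal of 9 collagen genes (left) and 9 other matrix genes (right) in muscle, each array as a point (n = 3 pools per diet) relative to the mean of the HFD arrays, with a tick at each group mean. All UR arrays lie to the right of all HFD arrays. UR replicate 1 is the rightmost point for every collagen shown except Col18a1 and Col22a1. The ND arrays overlap the HFD arrays for most collagens and lie to their right for Ogn, Dcn and Col22a1.

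Matrix glycoproteins and proteoglycans also rose. Of 33 measured, 18 rose and 1 fell (Ccn1), against 11.5% and 11% of all genes, with a median change of 0.23, and 12 to 17 rose when 1 array was left out. Ogn, a small leucine-rich proteoglycan, measured 9.88, 9.89 and 9.79 on the HFD arrays and 10.34, 10.39 and 10.45 on the UR arrays (log2 change of 0.54, standard error 0.06, adjusted p = 0.000114). Dcn, the proteoglycan decorin that coats collagen fibrils, measured 13.50, 13.45 and 13.57 on the HFD arrays and 13.83, 13.79 and 13.82 on the UR arrays (log2 change of 0.31, standard error 0.05, adjusted p = 0.000703), and Fmod, its tendon-rich relative fibromodulin, rose by 0.60 (standard error 0.10, adjusted p = 0.00164). The UR arrays of Ogn and Dcn lay within 0.2 of each other and above all HFD arrays. Comp, a protein of cartilage and tendon, measured 8.14, 8.51 and 8.22 on the HFD arrays and 8.78, 9.09 and 9.03 on the UR arrays (log2 change of 0.68, standard error 0.10, adjusted p = 0.000584), and Sparcl1, a matricellular protein of vessels and muscle, 8.80, 8.48 and 8.53 on the HFD arrays and 9.08, 9.23 and 9.20 on the UR arrays. Sparc, which binds collagen and guides its deposition, measured 10.77, 10.93 and 10.94 on the HFD arrays and 11.51, 11.29 and 11.12 on the UR arrays, UR replicate 1 again the highest. Prelp, a proteoglycan that anchors basement membranes, rose by 0.35 (standard error 0.06, adjusted p = 0.0022). With the HFD against the ND, Ogn had fallen by 0.71 and Dcn by 0.22, whereas Sparcl1 (-0.08, adjusted p = 0.534), Comp (-0.29, adjusted p = 0.0616) and Fmod (-0.19, adjusted p = 0.224) did not pass the test.

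Matrix proteinases, their inhibitors and TGF-beta signalling held fewer called genes. Of 22 measured, 6 rose and 1 fell, against 11.5% and 11% of all genes, and 3 to 6 rose when 1 array was left out (3 without UR replicate 2). Timp3, a matrix-bound inhibitor of metalloproteinases, measured 10.43, 10.46 and 10.71 on the HFD arrays and 11.08, 11.44 and 11.22 on the UR arrays (log2 change of 0.72, standard error 0.11, adjusted p = 0.00073). Adam9, a membrane-bound sheddase, measured 9.72, 9.77 and 9.66 on the HFD arrays and 10.35, 10.28 and 10.53 on the UR arrays (log2 change of 0.66, standard error 0.07, adjusted p = 5.74e-05), and Tgfbr2, a TGF-beta receptor, rose by 0.28. Among 23 integrins and their linkers 5 rose and 1 fell against the same shares, and 3 to 5 rose when 1 array was left out (3 without UR replicate 3 or HFD replicate 1). Itgbl1, a secreted protein built of integrin-like repeats, measured 8.85, 9.03 and 8.87 on the HFD arrays and 9.37, 9.43 and 9.46 on the UR arrays (log2 change of 0.50, standard error 0.06, adjusted p = 0.000197). Vcl, which encodes the adhesion protein vinculin, rose by 0.39, while Sdc4, a heparan sulphate proteoglycan of focal adhesions that satellite cells also carry, measured 10.13, 9.97 and 10.33 on the HFD arrays and 9.74, 9.61 and 9.76 on the UR arrays and fell by 0.44.

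Summed signals of markers of endothelium, fibroblasts and tendon, macrophages and Schwann cells were higher with UR. Matrix genes were higher too, and the part of these cell types in those results was not tested. In bulk samples, more cells of a type and more RNA per cell cannot be told apart. The summed signal of 12 endothelial markers was 25436 to 27102 on the UR arrays and 21053 to 21797 on the HFD arrays, and 5 of 11 tested rose (3 to 5 when 1 array was left out: 3 without UR replicate 2 or HFD replicate 2). Of all genes 11.5% rose, the share to set beside this count and those below. Cav1, the caveolar coat protein, measured 12.70, 12.57 and 12.59 on the HFD arrays and 13.03, 13.03 and 12.98 on the UR arrays (log2 change of 0.39, standard error 0.07, adjusted p = 0.00253), and Egfl7, an endothelial signal, rose by 0.41. The 11 fibroblast and tendon markers on the array summed to 18603 to 19883 with UR and 14820 to 15738 with the HFD, and 6 of 8 tested rose, Dpt, a matrix protein of fibroblasts, by 0.40, while Tnmd, Thbs4 and Tcf21 were detected on no array. Of those 8 markers 5 also stand in the collagen and matrix lists, and of the other 3, 2 rose. The 11 macrophage markers summed to 3529 to 4257 with UR and 2876 to 3105 with the HFD, and 6 of 10 tested rose (2 to 5 when 1 array was left out: 2 without UR replicate 1, HFD replicate 2 or HFD replicate 3). Schwann cell markers summed to 2880 to 3007 with UR and 2577 to 2621 with the HFD, though of 6 tested 2 rose and 1 fell. None of these 4 sums overlapped between the groups, but of all genes 42.1% also had groups that did not overlap, 18.4% with UR higher. The fibre markers themselves did not separate the groups (384960 to 386300 with UR and 382160 to 396450 with the HFD), nor did those of smooth muscle and pericytes (26614 to 28987 and 27712 to 28344) or of erythroid cells (16027 to 28311 and 16233 to 22323). Satellite cell markers summed to 2852 to 2980 with UR and 2982 to 3395 with the HFD, lower with UR and just short of overlap. Of these markers Pax7 and Myf5 were detected on no array. Of 8 markers of T and B cells on the array 5 were detected on no array, Ptprc, Cd3g, Cd4, Cd8a and Cd2.

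Fat cell markers set 2 UR arrays apart from the third. Adipoq, which encodes adiponectin, measured 8.88, 9.12 and 8.86 on the HFD arrays and 8.82, 9.86 and 9.92 on the UR arrays, and Lep, which encodes leptin, 8.26, 8.55 and 8.62 on the HFD arrays and 8.36, 9.32 and 9.46 on the UR arrays. In both, UR replicates 2 and 3 stood above all HFD arrays and UR replicate 1 did not, and neither gene was called with all arrays (adjusted p = 0.055 and 0.066). Without UR replicate 1 the changes were 0.94 and 0.91 (adjusted p = 6.63e-05 and 0.000456). Cidec, a lipid droplet protein, was detected on no HFD array and on all 3 UR arrays, at least 1.27-fold higher, with UR replicates 2 and 3 above replicate 1 (7.48, 7.93 and 7.82). The adipocyte markers Retn, Plin1, Fabp4 and Pck1 were detected on no array, and the summed signal of the list overlapped between the groups (1687 to 2640 with UR and 1640 to 1820 with the HFD). Among the UR arrays, replicate 1 was the lowest for these fat cell genes and the highest for Col1a1, Col3a1 and Col5a1.

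**Figure D3:**
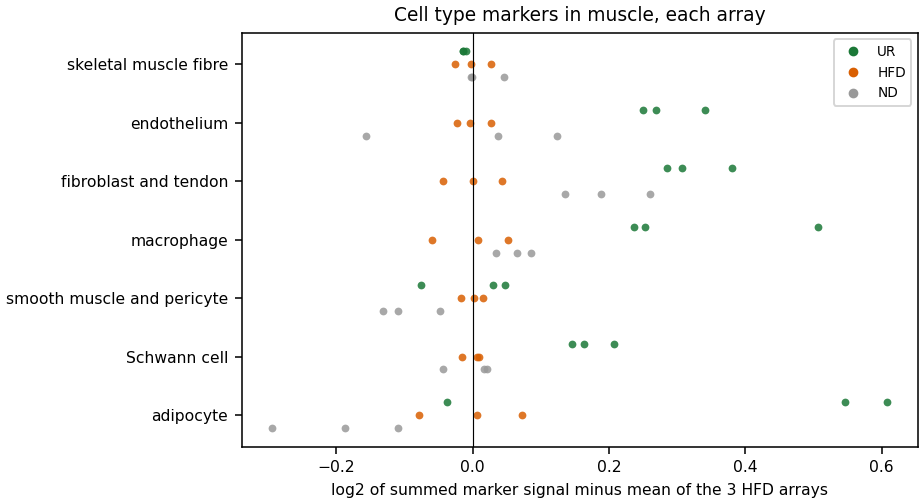
Summed signal of marker genes of 7 cell types in muscle, each array as a point (n = 3 pools per diet), on a log2 scale relative to the mean of the HFD arrays. Endothelial, fibroblast and tendon, macrophage and Schwann cell markers lie higher on every UR array than on every HFD array, fibre and smooth muscle markers overlap, and 2 of the 3 UR arrays stand apart for the fat cell markers.

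Calls among immune genes were few in number and varied between lists. Of 10 complement genes measured, 5 rose and the other 5 were not called, with a median of 0.21, 1 of the 5 passed the detection filter through the UR arrays only, and 3 to 4 rose when 1 array was left out (3 without HFD replicate 3). The list did not hold C8b, the complement gene that fell. Cd55, which protects cells from complement, measured 7.78, 7.80 and 7.74 on the HFD arrays and 8.19, 8.26 and 8.09 on the UR arrays (log2 change of 0.40, standard error 0.06, adjusted p = 0.000591), and Cfp, properdin of the alternative pathway, rose by 0.42. Of 20 cytokines, chemokines and their receptors 6 rose and 2 fell, against 11.5% and 11% of all genes, and 2 to 6 rose when 1 array was left out (2 without HFD replicate 2, 3 without UR replicate 1, UR replicate 2 or UR replicate 3). Pf4, a chemokine of platelets and macrophages, measured 8.30, 8.31 and 8.31 on the HFD arrays and 8.92, 8.82 and 8.75 on the UR arrays, and Ccl11, the eosinophil chemokine eotaxin, 9.35, 9.28 and 9.18 on the HFD arrays and 9.65, 9.66 and 9.65 on the UR arrays (log2 change of 0.38, standard error 0.06, adjusted p = 0.000717). Within each group the arrays of both genes lay within 0.2 of each other. Of 6 MHC class II genes 2 rose, and H2-Aa, an antigen-presenting chain, measured 8.46, 8.32 and 8.18 on the HFD arrays and 9.42, 8.57 and 8.80 on the UR arrays, UR replicate 1 standing apart from the others (0.37 without it, adjusted p = 0.0196). Of 20 interferon-stimulated genes 2 rose and 1 fell.

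Calls among contractile genes are given against the 11.5% of all genes that rose and the 11% that fell. Of 14 thick filament genes 3 rose, of 28 genes of the thin filament and Z-disc 3 rose, and of 14 isoforms of fast fibres 2 rose, and none of the others was called. Of 12 isoforms of slow fibres 0 were called by limma in either direction, and 3 were lower at an unadjusted p under 0.05 (median -0.0027). Mybpc1, a myosin-binding protein, measured 14.55, 14.54 and 14.48 on the HFD arrays and 14.82, 14.77 and 14.81 on the UR arrays (log2 change of 0.28, standard error 0.04, adjusted p = 0.000544). Myh1, the myosin heavy chain of fast IIx fibres, measured 13.23, 13.23 and 12.89 on the HFD arrays and 13.47, 13.41 and 13.45 on the UR arrays (log2 change of 0.33, standard error 0.07, adjusted p = 0.00783), after a fall of 0.42 with the HFD against the ND. Neb, the ruler protein nebulin, measured 10.79, 10.75 and 10.84 on the HFD arrays and 11.28, 11.07 and 11.10 on the UR arrays (log2 change of 0.35, standard error 0.08, adjusted p = 0.00771). Myh8, the perinatal myosin, rose by 0.71, highest on UR replicate 1 (9.73, 8.88 and 9.17) and not called without it (adjusted p = 0.072) or without HFD replicate 1 (0.0654). Ckm, the muscle creatine kinase, measured 14.93, 14.72 and 14.80 on the HFD arrays and 14.59, 14.53 and 14.66 on the UR arrays (log2 change of -0.22, standard error 0.05, adjusted p = 0.0099).

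Pools of both diets differed widely in 1 fast-fibre marker. Myh4, the heavy chain of the fastest IIb fibres, measured 11.39, 9.87 and 9.37 on the HFD arrays and 9.46, 7.36 and 9.60 on the UR arrays, a spread within each group of about 2 log2 units with overlapping groups. It was not detected on 1 of the UR arrays, and its change of -1.40 did not pass the test (adjusted p = 0.126). No other gene of the text had an SD as wide in both groups (SD 1.05 with the HFD and 1.25 with UR).

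Calcium handling and the neuromuscular junction held a few called genes. Orai1, the pore of store-operated calcium entry, measured 10.70, 10.56 and 10.55 on the HFD arrays and 10.20, 10.12 and 10.20 on the UR arrays (log2 change of -0.43, standard error 0.06, adjusted p = 0.000244), after a rise of 0.34 with the HFD against the ND. Of 23 calcium genes 2 rose and 3 fell, near the 11.5% and 11% of all genes. Cacng1, a subunit of the calcium channel that senses voltage in the fibre membrane, rose by 0.28. Of 9 junction genes 2 rose, and Agrn, which encodes agrin, the nerve signal that clusters acetylcholine receptors, measured 9.95, 9.96 and 9.92 on the HFD arrays and 10.38, 10.40 and 10.36 on the UR arrays (log2 change of 0.44, standard error 0.08, adjusted p = 0.00222).

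Most called genes of muscle wasting and autophagy fell. Of 23 measured, 1 rose and 6 fell, against 11.5% and 11% of all genes, with a median of -0.07, 3 to 5 fell when 1 array was left out (3 without UR replicate 2), and 2 fell with median scaling. Gabarapl1, an autophagosome protein, measured 13.06, 13.12 and 13.09 on the HFD arrays and 12.85, 12.42 and 12.43 on the UR arrays, with UR replicate 1 between the other UR arrays and the HFD arrays (log2 change of -0.53, standard error 0.10, adjusted p = 0.00294). Fbxo30, the ubiquitin ligase MUSA1 of wasting muscle, measured 9.91, 9.96 and 9.90 on the HFD arrays and 9.59, 9.53 and 9.69 on the UR arrays (log2 change of -0.32, standard error 0.06, adjusted p = 0.00266), and Atg13, of the complex that starts autophagy, fell by 0.26. Trim63, the ligase MuRF1 that degrades sarcomere proteins, measured 10.10, 10.26 and 10.43 on the HFD arrays and 9.97, 9.73 and 10.07 on the UR arrays (log2 change of -0.34, standard error 0.11, adjusted p = 0.0381) and was not called without UR replicate 1, UR replicate 2, HFD replicate 2 or HFD replicate 3 (adjusted p = 0.0605, 0.163, 0.0794 and 0.134). Of 27 proteasome subunits 2 rose and 3 fell.

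Of 15 glucocorticoid-responsive genes measured, 3 rose and 3 fell, against 11.5% and 11% of all genes. Sgk1, a kinase that glucocorticoids and insulin signalling induce, measured 12.16, 12.02 and 12.58 on the HFD arrays and 12.93, 12.73 and 12.97 on the UR arrays (log2 change of 0.63, standard error 0.14, adjusted p = 0.00795), and Tsc22d3, which encodes the glucocorticoid-induced leucine zipper, rose by 0.37. Both had fallen with the HFD against the ND, by 0.77 and 0.33. Cdkn1a, which encodes the cell cycle inhibitor p21, measured 9.58, 9.75 and 9.94 on the HFD arrays and 9.38, 9.32 and 9.11 on the UR arrays (log2 change of -0.48, standard error 0.10, adjusted p = 0.00576). Klf2, a transcription factor that blood flow induces in endothelium, measured 10.30, 9.95 and 10.61 on the HFD arrays and 10.89, 10.87 and 10.98 on the UR arrays, and the HFD arrays spread more than the UR arrays.

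Called genes of chaperones and the unfolded protein response all rose. Of 23 measured, 7 rose and the other 16 were not called, against the 11.5% of all genes that rose, with a median of 0.11, and 4 to 7 rose when 1 array was left out (4 without UR replicate 3). Hsp90b1, the chaperone GRP94 of the endoplasmic reticulum, measured 12.20, 12.16 and 12.22 on the HFD arrays and 12.55, 12.79 and 12.44 on the UR arrays (log2 change of 0.40, standard error 0.07, adjusted p = 0.00228), and Pdia6, a disulphide isomerase of the same compartment, 7.55, 7.64 and 7.52 on the HFD arrays and 7.88, 7.93 and 7.94 on the UR arrays (log2 change of 0.35, standard error 0.06, adjusted p = 0.00163). Atf4, the transcription factor of the integrated stress response, measured 12.22, 12.35 and 12.47 on the HFD arrays and 12.73, 12.65 and 12.72 on the UR arrays (log2 change of 0.35, standard error 0.06, adjusted p = 0.00125). Dnajb4, a co-chaperone of the cytosol, rose by 0.51. For all 4, the UR arrays lay above all HFD arrays.

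Of 27 measured genes of pyruvate dehydrogenase and the citric acid cycle, 9 rose and 1 fell, against 11.5% and 11% of all genes. When 1 array was left out, 8 to 10 rose. Sdhd, a membrane anchor of succinate dehydrogenase, measured 10.35, 10.24 and 10.52 on the HFD arrays and 11.19, 11.06 and 11.06 on the UR arrays (log2 change of 0.73, standard error 0.07, adjusted p = 2.19e-05), and Idh2, the mitochondrial NADP-dependent isocitrate dehydrogenase, 14.20, 14.18 and 14.41 on the HFD arrays and 14.71, 14.83 and 14.72 on the UR arrays (log2 change of 0.49, standard error 0.06, adjusted p = 0.000197). Pdp1, the phosphatase that activates pyruvate dehydrogenase, measured 9.66, 9.68 and 9.56 on the HFD arrays and 10.00, 10.35 and 10.43 on the UR arrays, UR replicate 1 the lowest of its group (log2 change of 0.63, standard error 0.10, adjusted p = 0.00106). Cs, citrate synthase, rose by 0.29, and the cytosolic enzyme Idh1 by 0.40. These 5 genes had each fallen with the HFD against the ND, by 0.55, 0.39, 0.34, 0.22 and 0.58 in the same order. With the HFD 8 genes of the list fell and 0 rose, against 7.76% and 7.61% of all genes. The HFD arrays enter both comparisons, which favours such opposite signs, so no reversal is read from them. With median scaling 8 genes of the list rose with UR.

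Counts for respiratory chain subunits lay near the 11.5% higher and 11% lower of all genes. Of 34 complex I genes 5 rose and 3 fell, of 11 complex IV genes 1 rose and 2 fell, and of 15 ATP synthase genes 3 rose and 1 fell. Within complex I, Ndufb9 measured 11.77, 11.51 and 11.68 on the HFD arrays and 11.98, 12.22 and 12.19 on the UR arrays (log2 change of 0.47, standard error 0.07, adjusted p = 0.000978), whereas Ndufb3 measured 13.32, 13.32 and 13.30 on the HFD arrays and 13.03, 13.07 and 13.19 on the UR arrays (log2 change of -0.22, standard error 0.05, adjusted p = 0.00773), so subunits of 1 module changed in opposite directions. Atp5a1, a catalytic-head subunit of ATP synthase, rose by 0.60, and Cox6c, a nuclear-encoded complex IV subunit, by 0.26. Of 21 genes of mitochondrial biogenesis and dynamics 3 rose and 1, Ppargc1a, fell. Tfb1m, which methylates mitochondrial ribosomal RNA, measured 8.30, 8.18 and 8.08 on the HFD arrays and 8.59, 8.68 and 8.78 on the UR arrays (log2 change of 0.50, standard error 0.07, adjusted p = 0.000338), after a fall of 0.58 with the HFD against the ND.

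Of 37 genes of fatty acid uptake and oxidation 6 rose and 2 fell, against 11.5% and 11% of all genes. Hadhb, the thiolase subunit of the mitochondrial trifunctional protein, measured 14.14, 14.22 and 14.12 on the HFD arrays and 14.58, 14.59 and 14.63 on the UR arrays (log2 change of 0.44, standard error 0.05, adjusted p = 0.000197), and Cpt2, which regenerates acyl-CoA in the matrix, 13.03, 13.14 and 13.40 on the HFD arrays and 13.59, 13.51 and 13.69 on the UR arrays (log2 change of 0.41, standard error 0.08, adjusted p = 0.00245). Cd36, the fatty acid transporter of the fibre membrane, measured 8.24, 8.11 and 8.32 on the HFD arrays and 7.94, 7.82 and 7.99 on the UR arrays and fell by 0.30. Of 25 genes of lipid synthesis and lipolysis 5 rose, among them Cidec, which passed the detection filter through the UR arrays only, and the others were not called. Me1, the malic enzyme that supplies NADPH, measured 9.42, 9.56 and 9.69 on the HFD arrays and 10.11, 10.02 and 10.32 on the UR arrays (log2 change of 0.59, standard error 0.08, adjusted p = 0.000338). Agpat3, an acyltransferase of phospholipid and triglyceride synthesis, and Fads1, a desaturase, rose by 0.50 and 0.31.

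Lists of amino acid and sugar metabolism held a few called genes each (all genes, 11.5% higher and 11% lower). Aldh6a1, the methylmalonate-semialdehyde dehydrogenase of valine breakdown, measured 11.62, 11.62 and 11.56 on the HFD arrays and 12.38, 12.27 and 12.35 on the UR arrays (log2 change of 0.74, standard error 0.06, adjusted p = 1.24e-05), after a fall of 0.56 with the HFD, while of 18 genes of branched-chain amino acid breakdown 2 rose and 1 fell. Gbe1, the glycogen branching enzyme, measured 7.93, 7.94 and 8.04 on the HFD arrays and 8.36, 8.37 and 8.55 on the UR arrays (log2 change of 0.46, standard error 0.07, adjusted p = 0.000584), and Gyg, the glycogenin that primes glycogen, rose by 0.30. Of 17 genes of glycogen and glucose uptake 3 rose and 2 fell. Of 21 insulin and IGF signalling genes 2 rose and 4 fell. Grb14, an adaptor that restrains the insulin receptor, measured 9.90, 9.88 and 9.92 on the HFD arrays and 10.13, 10.16 and 10.34 on the UR arrays (log2 change of 0.31, standard error 0.07, adjusted p = 0.00567). Among 27 redox genes 3 rose and 2 fell. Cat, the peroxisomal catalase, measured 12.03, 12.02 and 11.97 on the HFD arrays and 12.33, 12.47 and 12.41 on the UR arrays (log2 change of 0.40, standard error 0.06, adjusted p = 0.0005), whereas Srxn1, a sulfiredoxin and NRF2 target, measured 10.38, 10.35 and 10.56 on the HFD arrays and 10.12, 9.88 and 9.89 on the UR arrays (log2 change of -0.47, standard error 0.07, adjusted p = 0.000996). Cpox, an enzyme of haem synthesis, measured 7.82, 7.88 and 7.87 on the HFD arrays and 7.51, 7.49 and 7.45 on the UR arrays and fell by 0.37.

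Most called ribosomal protein genes fell, by small amounts. Of 50 cytosolic ribosomal protein genes 1 rose and 13 fell, against 11.5% and 11% of all genes, with a median of -0.08, and 2 to 8 fell when 1 array was left out, each of the 6 arrays moving the count (2 with UR replicate 2 left out, 4 with HFD replicate 1 left out, 5 with UR replicate 3 left out, 6 with UR replicate 1 or HFD replicate 3 left out, 8 with HFD replicate 2 left out). Rps2, of the small subunit, measured 15.49, 15.51 and 15.52 on the HFD arrays and 15.21, 15.29 and 15.36 on the UR arrays (log2 change of -0.22, standard error 0.05, adjusted p = 0.00406). Rpl23, of the large subunit, was the 1 that rose, at 14.66, 14.88 and 14.89 on the HFD arrays and 15.26, 15.18 and 15.17 on the UR arrays (log2 change of 0.40, standard error 0.06, adjusted p = 0.000785). Ribosomal protein genes have many processed copies in the genome, and cross-hybridization of these probes was not tested. Of 71 mitochondrial ribosomal protein genes 3 rose and 14 fell (Mrpl45 among these, detected on no UR array), with a median of -0.09, and 5 to 10 fell when 1 array was left out (5 without UR replicate 1, 6 without UR replicate 3 or HFD replicate 1, 8 without UR replicate 2 or HFD replicate 2). Mrps9 measured 11.49, 11.50 and 11.53 on the HFD arrays and 11.22, 11.26 and 11.13 on the UR arrays (log2 change of -0.30, standard error 0.05, adjusted p = 0.00196), Mrps18b fell by 0.26 and Mrps34 by 0.23, and Mrps15 rose by 0.28. Mrpl45 was detected on all HFD arrays and no UR array, at least 1.12-fold lower. With median scaling 6 cytosolic and 4 mitochondrial ribosomal protein genes fell, where 204 of all genes fell, and counts over all genes were also smaller when 1 array was left out.

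Of 40 translation factors and tRNA synthetases 8 fell and 2 rose, against 11% and 11.5% of all genes, and 3 to 7 fell when 1 array was left out (3 without UR replicate 1, UR replicate 2, UR replicate 3 or HFD replicate 1, 5 without HFD replicate 3). Sars, the seryl-tRNA synthetase, measured 9.52, 9.48 and 9.54 on the HFD arrays and 9.15, 9.21 and 9.28 on the UR arrays (log2 change of -0.30, standard error 0.06, adjusted p = 0.00333), and Eef1b2, an elongation factor subunit, 11.68, 11.72 and 11.87 on the HFD arrays and 12.05, 12.12 and 12.07 on the UR arrays (log2 change of 0.33, standard error 0.05, adjusted p = 0.00126). With median scaling 1 of the 40 fell.

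**Figure D4:**
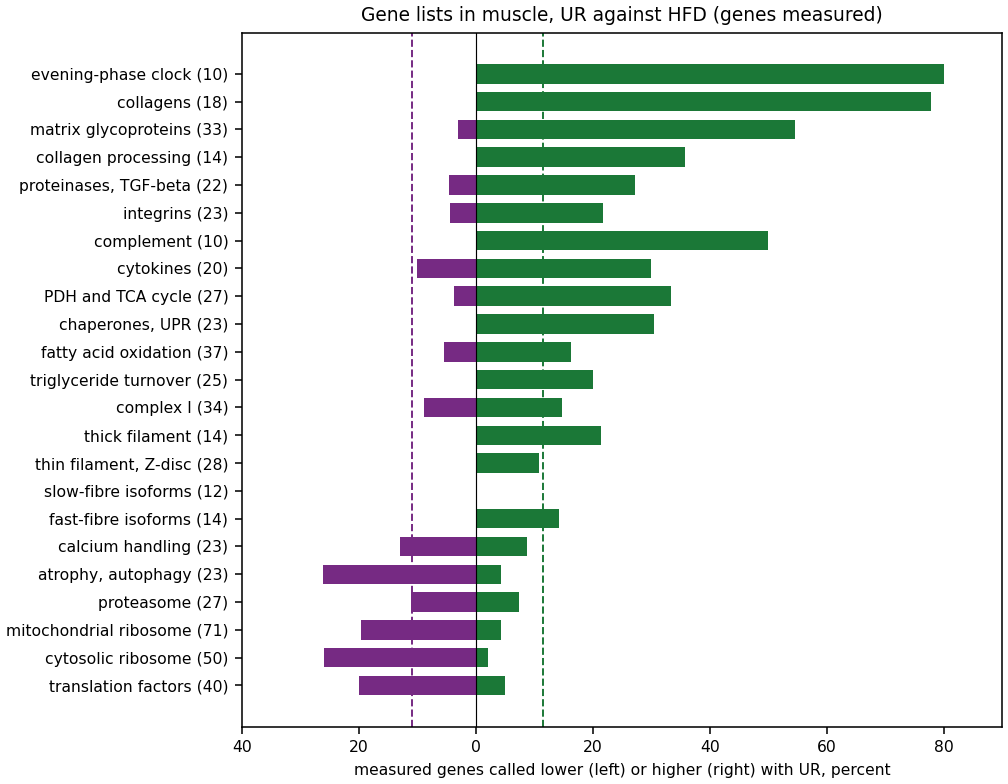
Share of the measured genes of each list that limma called higher (right, green) or lower (left, purple) with UR than with the HFD in muscle, in percent, with the number of genes measured in brackets. Dashed lines mark the shares of all 9313 genes, 11.5% higher and 11% lower; evening-phase clock genes and collagens reach furthest to the right, and atrophy genes, ribosomal proteins and translation factors lie further left than the line.

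Of the 26 measured genes that the study names in muscle, 22 rose and 1 fell. Those genes were chosen from these same samples, so the count is not independent evidence of a direction.

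The change of collagen genes with UR in muscle was compared with their change in the liver and in the epididymal white adipose tissue (WAT). All 27 arrays entered 1 limma model. For the liver, the study reports that UR lowered several collagen genes, Col1a1 and Col6a1 among them. The change with UR was higher in muscle than in the liver for 9 of 13 collagen genes tested in both and lower for 0, against 22.8% higher and 19.8% lower among all 8116 genes, and higher than in WAT for 10 of 16 and lower for 0, against 10.4% and 9.78% of all 8741 genes. With median scaling the counts were 6 and 8. For matrix glycoproteins and proteoglycans, 15 of 22 were higher than in the liver and 1 lower, and 14 of 32 were higher than in WAT and 0 lower. With median scaling 9 and 9 were higher. Arrays of different tissues were treated as independent, and the sources do not say whether their pools shared mice. The balance of these calls over all genes depended on the scaling, from 1852 higher and 1606 lower against the liver to 699 and 2626 with median scaling, and from 912 and 855 against WAT to 632 and 389. Median scaling in this comparison of lists was chosen after seeing the data.

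The change with UR was compared between tissues for the 6 largest increases and for the 6 largest decreases measured in all 3 tissues (Adam20, the second largest decrease, was not, so Irs2 stands in). Of these 12 genes, 9 differed from WAT and 6 from the liver, against 20.2% and 42.6% of all genes. They were chosen for a large change in muscle, which favours a difference from the other tissues, so nothing is read from these counts. For Ciart and Per2 the difference from the liver was lost with median scaling (0.30 and 0.38, adjusted p = 0.193 and 0.192). Acadsb had a change of 2.06 in the liver, and of -0.42 in WAT, so that muscle differed by -1.10 and 1.37 (adjusted p = 3.65e-06 and 1.9e-06). Ffar3 was lower in the liver too (-0.78), with no called difference from muscle (difference -0.18, standard error 0.09, adjusted p = 0.119, though -0.29 and 0.0252 under median scaling), whereas it was higher in WAT (0.30, adjusted p of the difference from muscle = 4.05e-10). Bhlhe40 had changes of 1.44 in the liver and 0.12 in WAT, and only the difference from WAT passed the test (adjusted p = 0.000333, against 0.486 for the liver and 0.0344 there with median scaling). C8b had changes of 0.15 in the liver and 0.33 in WAT, and Ppargc1a of 0.05 and -0.05, and the fall in muscle differed from each of these, by -0.91 and -1.08 for C8b and by -0.74 and -0.64 for Ppargc1a. ND6 differed from WAT by -1.27 (adjusted p = 6.95e-05). From the liver, ND6 (-0.47, adjusted p = 0.0515) and Coq10b (-0.23, adjusted p = 0.236) had no called difference. With median scaling both were called (-0.50 and -0.48, adjusted p = 0.0173 and 0.0203). For Angptl4 and Irs2 the differences from the liver were -0.59 (standard error 0.27) and -0.11 (standard error 0.31) and were not called, though that of Angptl4 was called with median scaling (-0.84, adjusted p = 0.0152).

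**Figure D5:**
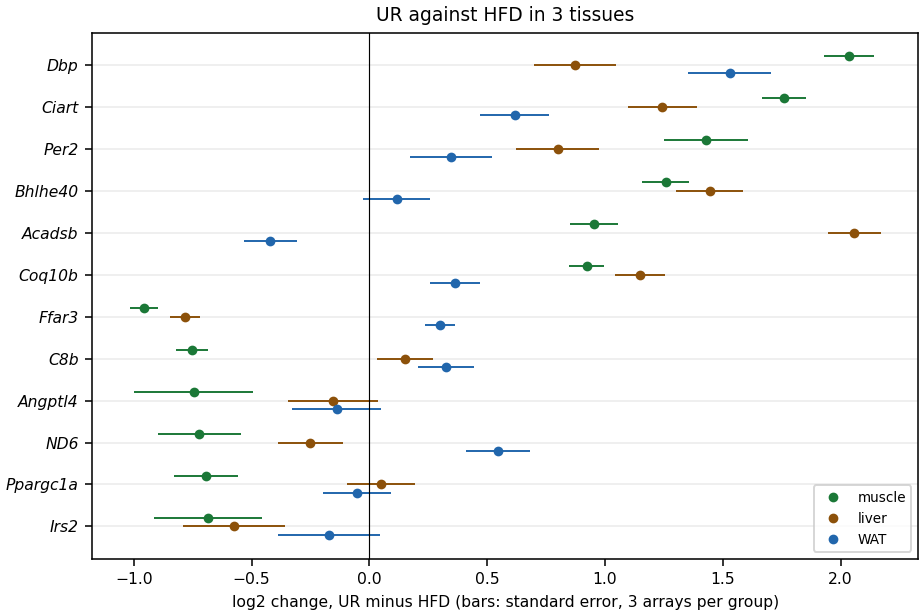
Log2 change with UR against the HFD of the 6 largest increases and the 6 largest decreases of muscle that were measured in all 3 tissues, in muscle, liver and WAT (points; bars are standard errors from limma, n = 3 pools per group and tissue). Among the increases, muscle lies furthest right for Dbp, Ciart and Per2, and the liver for Acadsb, Bhlhe40 and Coq10b. For Bhlhe40 and Coq10b the difference between liver and muscle was not called, nor was that between WAT and muscle for Dbp. WAT lies on the other side of 0 from muscle for Acadsb, Ffar3, C8b and ND6.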

How the data were processed

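Total RNA from gastrocnemius, liver and epididymal WAT was combined into 3 pools per diet and tissue, and biotin-labelled cRNA was hybridised to Illumina MouseWG-6 v2 BeadChips. The authors deposited a probe signal intensity and a detection p-value for every probe on every array, not normalized between arrays. A second deposited table, quantile-normalized and log2-transformed by the authors, was used only for a check, since each of its 9 muscle columns equalled a WAT column in all 45281 rows. The version of the scanner software and any background subtraction are not given in the sources used here.

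Intensities of the 9 muscle arrays were quantile-normalized and log2-transformed with limma 3.58.1 in R 4.3.3. A probe was kept if its detection p was under 0.05 on each array of 1 muscle group or more (16332 probes), and the brightest kept probe with 1 gene symbol stood for its gene. Of 792 called genes with more than 1 kept probe, 47 (5.93%) had another probe called in the opposite direction and 235 (29.7%) in the same direction, and none of the genes in the text is among the 47. Diets were compared with lmFit and eBayes (with an intensity trend, two-sided, Benjamini-Hochberg adjustment) over the 9 muscle arrays, with 1 coefficient per diet. The effects of UR in muscle, liver and WAT were compared over 27 arrays, each tissue normalized on its own. A "fold" is given as a bound, against the lowest detected signal, where a gene was detected on no array of a group. Total signal was 26904145 to 29767573 on the UR and 25797192 to 27934242 on the HFD arrays, the correlation between muscle arrays was 0.992 to 0.998, and no pair of muscle arrays shared the same signal at more than 1 probe. The limma fits were tested on simulated data first.

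Named genes were the 12 largest called increases and decreases with groups that did not overlap and no opposite probe, the genes of the study in muscle, and up to 6 genes of smallest p in each of 55 gene lists, with members needed to show what a list holds. Members and lists were chosen with earlier results of these data known. Some genes that the rule names are not reported here. Probe annotation gave the symbols. Alternatives were median scaling, normexp background correction, normalization over all 27 arrays, log2 before normalization, other detection filters and the mean over probes. Others were no intensity trend, array weights, 2 groups only, a replicate block and a fold limit. The rest were a plain t-test, rank products, and leaving out each array in turn.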

Additional observations from a re-analysis of the deposited data

Results flagged for a closer look

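A difference between tissues in the change with UR, by the limma contrast over 27 arrays, was called for 10 of the 12 genes compared, which were chosen for a large change in muscle (each value is the log2 change in muscle minus that in the other tissue). For the clock genes, Dbp differed from the liver by 1.16 (adjusted p = 0.000495). Ciart differed from the liver by 0.52 (adjusted p = 0.0466) and from WAT by 1.14 (adjusted p = 0.000407). Per2 differed from the liver by 0.63 (adjusted p = 0.0437) and from WAT by 1.08 (adjusted p = 0.00332), and Bhlhe40 differed from WAT by 1.14 (adjusted p = 0.000333). With median scaling the liver differences of Ciart and Per2 were 0.30 and 0.38 and were not called (adjusted p = 0.193 and 0.192).

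Acadsb rose less in muscle than in the liver (-1.10) and fell in WAT, so that its difference from WAT was 1.37. Coq10b differed from WAT by 0.56 (adjusted p = 0.0104). Among the decreases, Ffar3 differed from WAT by -1.26 and ND6 by -1.27. C8b differed from the liver by -0.91 and from WAT by -1.08, and Ppargc1a by -0.74 (adjusted p = 0.0049) and -0.64 (adjusted p = 0.0282).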

How the results depend on the processing

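Of the 115 genes named, 111 were called. Of these, 100 were called in every limma setting without a fold limit in which the gene was kept. The t-test and rank products were not counted there. All 115 kept 1 direction in those limma settings. For most of them the groups did not overlap, so leaving out 1 array could not reverse the change. Dropping the trend, the replicate block and 2 groups only leave each log2 change as it was. The count of 2093 genes called with UR against the HFD was 1855 to 2333 with normexp correction, normalization over 27 arrays, log2 before normalization, other detection filters, the mean over probes, no trend, array weights or 2 groups only. It was 1137 with median scaling and 116 with a log2 change over 0.5 required as well. A plain t-test gave 108 at an unadjusted threshold with that fold (85 higher, 23 lower). After Benjamini-Hochberg the t-test gave 47 with the fold (37 and 10) and 352 without it (175 and 177). Rank products, the test that the paper names for its array genes, gave 210 (143 and 67). Without 1 array the count was 1228 (without UR replicate 2) to 1555 (without HFD replicate 2). It was 1467 and 1273 without UR replicates 1 and 3, and 1399 and 1515 without HFD replicates 1 and 3. The cause of these shifts was not tested, though a fold limit can only remove calls and a fit without 1 array has fewer samples.

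The 1432 genes called between the HFD and the ND became 74 with the fold limit (22 higher, 52 lower) and 869 (without ND replicate 2) to 1058 (without ND replicate 1) without 1 array, 894 without HFD replicate 1 and 932 without HFD replicate 3. The 1767 genes whose change differed from WAT became 1021 with median scaling and 1384 to 1525 without 1 array. The 3458 that differed from the liver became 3325 with median scaling and 3082 to 3289 without 1 array. Same-numbered UR and HFD pools had correlations of their deviations of 0.0121, 0.132 and 0.0526, and 2 of the 3 UR pools correlated best with the HFD pool of their own number. Whether same-numbered pools share more than a number was not tested. With the replicate block 2045 genes were called for UR against the HFD, 1431 for the HFD against the ND, 3386 against the liver and 1674 against WAT. In that fit Adipoq (0.58, adjusted p = 0.0416) and Myh4 (adjusted p = 0.0166) were called. With median scaling Tef, Trim63, Tsc22d3, Atg13, Cs and Sars were not called, while Adipoq and Lep were (0.62 each), with the mean over probes Tef, Myh8, Tsc22d3, Angptl4, Ccn1 and Irs2 were not, and without the detection filter Per3 (0.21) was not. Signals near background limit Per3, Cidec and Mrpl45, which were below detection in 1 group. The size of the change also depended on background correction for some detected genes of low signal. With normexp correction it went from -0.37 to -0.90 for Cpox, from 0.40 to 0.77 for Cd55 and from -0.30 to -0.55 for Cd36, each still called. Pools hide the spread between mice.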

Other observations

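Gene lists not described above held few called genes. Of 12 genes of the dystrophin complex and sarcolemma 3 rose, with a median change of 0.07, and of 13 myogenic factors 3 rose, with a median of 0.01. Of 17 immediate early genes, which stimulation induces within minutes to hours, 3 rose and 1 fell. Of 11 genes of complex II and III 1 rose and 1 fell. Of 14 genes of cholesterol synthesis and uptake 1 rose and 2 fell, of 17 of glycolysis 2 rose and 1 fell, of 19 of iron and haem 2 rose and 3 fell, and of 9 AMPK subunits 1 fell, against 11.5% and 11% of all genes. Of 6 Schwann cell markers 2 rose and 1 fell, of 6 smooth muscle and pericyte markers 2 rose, of 5 satellite cell markers 1 rose and 2 fell, and of 12 fibre markers 1 rose and 1, Ckm, fell.

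In the list of clock activators, which also held the repressor Bhlhe40, 4 genes were measured. Bhlhe40 rose and Arntl and Rora fell, and Clock was not called.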
